A study of Homo sapiens with 4 samples.

Results

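The 60S assembly and nucleolar factors are proteins that build the large ribosomal subunit in the nucleolus and accompany it to the cytoplasm. A list of 44 genes was followed in RNA-seq libraries of HepG2 cells with and without a TXNDC9 knockout. The list was chosen by name, with earlier results of these data known. Its counts and medians below therefore describe the data and are no independent test. All 44 genes were found among the 57979 genes with values, and all passed the filter on low values that left 13246 genes to be tested. HepG2 is a human liver cancer cell line. The 4 libraries, 2 per condition, were labelled as HepG2 cells grown in DMEM with fetal bovine serum, either with the genotype wild-type or after CRISPR-Cas9 targeting of TXNDC9, a cytoplasmic thioredoxin domain protein. According to the study's methods, the guides were delivered with the lentiCRISPRv2 vector. For its western blot the study sorted the infected HepG2 cells by FACS, and it reported less TXNDC9 protein after knockout. Whether the sequenced knockout cells were sorted in the same way, or came from a clone, is not given in the sources used here. Nothing in the labels says that the replicates were separate cultures, and the p-values below therefore measure the spread between these libraries, which may be technical.

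A ribosome is assembled from rRNA and ribosomal proteins by many transient factors. In the nucleolus, the rRNA of the large subunit is cut out of a long precursor, freed of its internal transcribed spacers, modified and folded while GTPases, ATPases, methyltransferases and scaffold proteins bind and leave in order, and the particle is then exported to the cytoplasm, where the last factors are released. Many of these genes are well known targets of the transcription factor MYC, whose usual binding sequence is the E-box CACGTG, and their mRNA is usually abundant in growing tumour cells.

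The values were FPKM (fragments scaled by the length of the transcript and by the size of the library), so levels can be compared between genes of a library, but they are not counts and the depth behind them is unknown. TXNDC9 itself had 35.1 and 37.3 FPKM in the wild-type pair, compared with 21.9 and 27.6 FPKM in the knockout pair. Its log2 fold change (knockout minus wild-type, here and below) was -0.55 with a standard error of 0.14 and an adjusted p of 0.0145 from limma, short of the threshold of 0.01. Its sign turned when each library was rescaled to the same sum, to a log2 fold change of 0.12 (limma adjusted p = 0.449). The mRNA level does not show whether the gene product is lost. The summed FPKM was 805816 and 971102 in wild-type and 535973 and 568279 in knockout libraries, so the libraries also differed in their overall scale, and levels as deposited are not directly comparable between libraries. Fold changes of single genes are given as deposited, and for some genes also rescaled or corrected. Only the medians of gene lists are set beside the median of all tested genes. The defining markers of hepatocytes were near 0 in every library. Over 10 such markers the FPKM summed to 0.446 and 0.733 in wild-type and to 0.0479 and 0.174 in knockout libraries. ALB reached at most 0.0260 FPKM, and APOA1 and APOC3 were listed at 0 in all 4. The cells are therefore called here by their label only. Over 10 markers of other cell types the sum ranged from 34.3 to 40.004 FPKM in wild-type and from 31.9 to 34.6 FPKM in knockout libraries. COL1A1, a fibroblast collagen, made up most of it, while CD3E and COL1A2 were listed at 0 in all 4. CDH5, an endothelial cadherin, was 0.751 and 1.07 FPKM in wild-type libraries against 4.26 and 3.14 FPKM after knockout. The part of these markers in the results was not tested.

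As deposited, most of the 44 genes were lower in the libraries labelled TXNDC9 knockout, by less than 2-fold in most cases, and 8 of them turned in sign when the libraries were rescaled to the same sum. A gene was called when limma gave an adjusted p under 0.01 and the change was at least 2-fold. By this rule 15 members were called lower and 1, GNL3L, was called higher, where 15.3% of all tested genes were called lower and 14.2% higher. At an adjusted p under 0.01 and any fold, 29 members were lower and 4 were higher, against 27.1% and 23.7% of all tested genes. In 33 members both knockout values lay below both wild-type values and in 6 they lay above, against 45.9% and 40.1% of all tested genes. The median log2 fold change was -0.76 over the members and -0.09 over all tested genes, a gap of -0.67. After that rescaling (TPM), the median of all tested genes moved to 0.59, that of the members to -0.08, and the gap was -0.66. On that scale only 1 member, GNL2, was called lower, where 3.37% of all tested genes were. The other 14 members called lower as deposited lost their call. The 5 members called higher were GNL3L, NMD3, SDAD1, TEX10 and NOC3L, where 33.1% of all tested genes were called higher. The calls as deposited needed both knockout libraries. Without knockout replicate 1, or without knockout replicate 2, 0 members and 0 of all tested genes were called by limma, and 33 and 35 members had an unadjusted p under 0.05, as had 53.8% and 55.2% of all tested genes. Without wild-type replicate 1, 17 members and 19.9% of all tested genes were called lower, and without wild-type replicate 2, 13 members and 11.8% were.

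**Figure D1:**
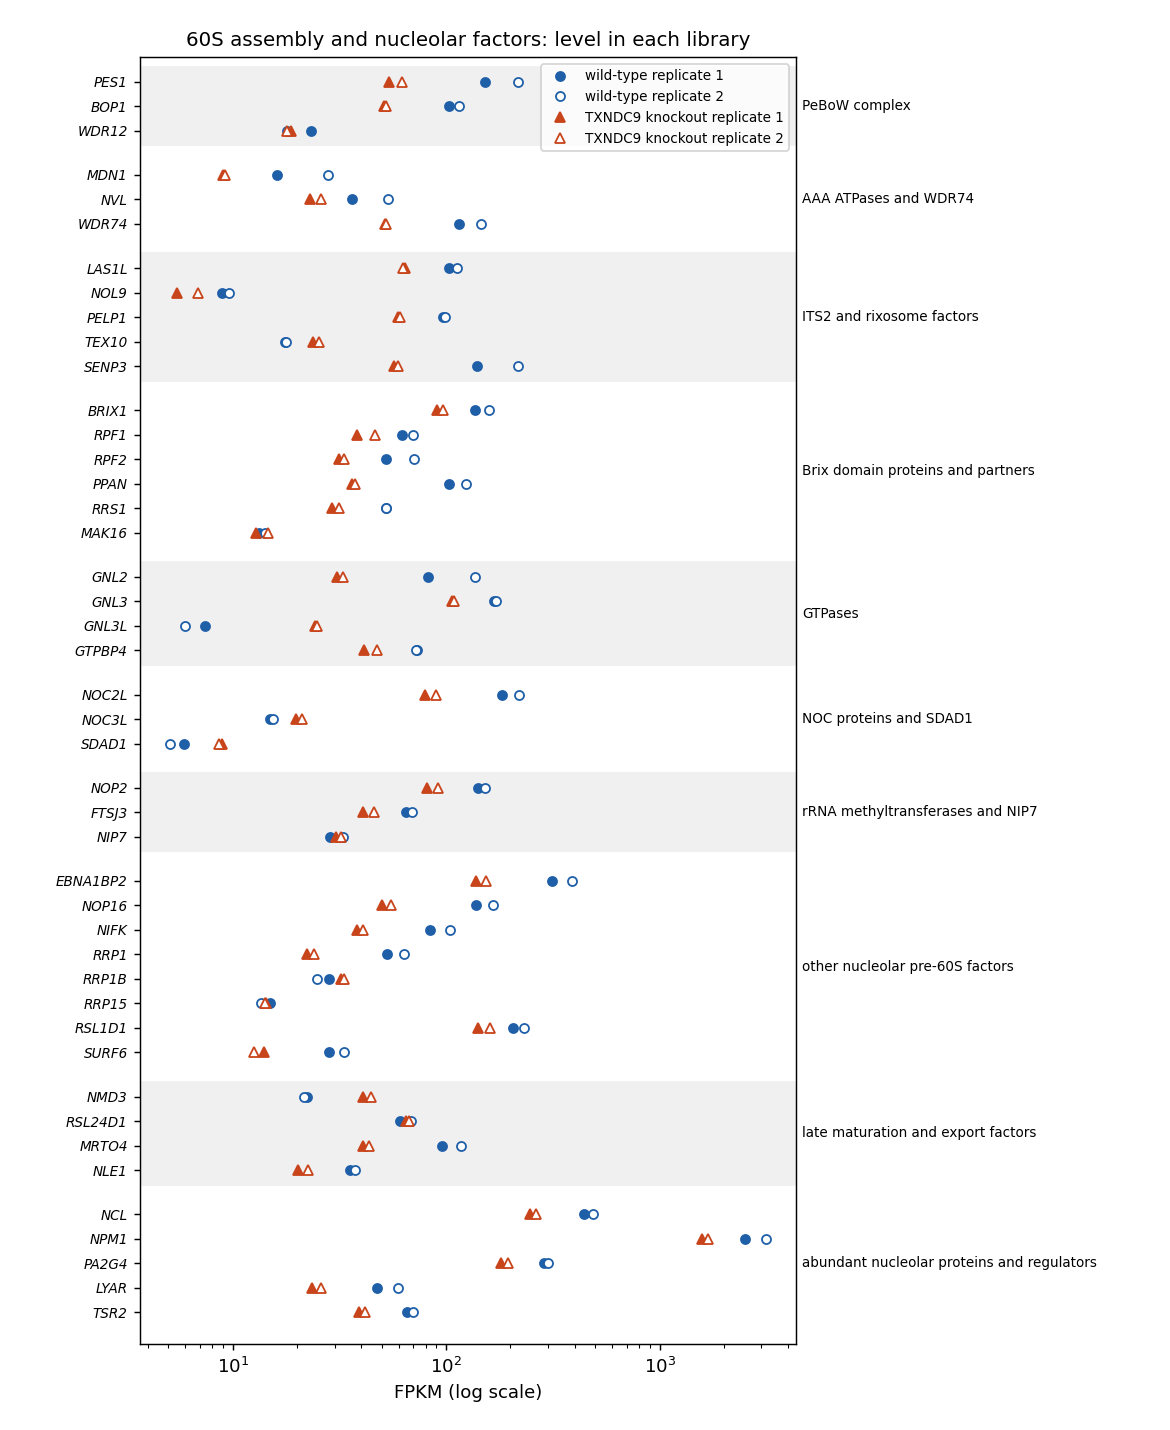
Level of each of the 44 genes in each library, in FPKM on a log scale, grouped by role; circles are the 2 wild-type libraries and triangles the 2 TXNDC9 knockout libraries. The triangles lie left of both circles in 33 genes and right of both in 6 (TPM rescaling moves the median of the genes to -0.08 on the log2 scale), and NPM1 stands far to the right of the others.

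The members held a smaller share of the knockout libraries. Their summed FPKM was 0.799% and 0.796% of the library total in wild-type and 0.709% and 0.719% in knockout libraries, and the 2 groups did not overlap. The knockout share was 0.895 of the wild-type share, with a two-sided exact permutation p of 0.333, which is the smallest that 2 libraries against 2 can give. Without NPM1 the knockout share was 0.871 of the wild-type share, and without the 100 genes of highest mean FPKM it was 0.778. Mean wild-type levels ran from 5.51 FPKM for SDAD1 to 2830 FPKM for NPM1, with a median of 67.4 FPKM. In bulk RNA, less RNA of a gene per cell and fewer cells that make it cannot be told apart.

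The promoters of the members were read from RefSeq (GRCh38.p14), from 250 bases before to 50 bases after the first listed start site, and 38 of the 44 members had an entry. The E-box CACGTG, which reads the same on both strands, was present in 13 of 38 member promoters (34.2%), in 10.6% of the 9007 matched promoters of tested genes and in 7.43% of all 27305 promoters. Of the called members with an entry, 6 of 15 held it. The letters CCGGAAG, bound by ETS factors and searched on both strands, were in 15 member promoters (39.5%) against 20.5% of those of tested genes and 10.7% of all. The letters CCAAT, bound by NF-Y and searched on both strands, were in 11 (28.9%) against 37.2% and 35.7%. No motif contains another. These are matches of letters and were not tested.

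As deposited, 10 of the 13 members with an E-box had a negative log2 fold change and 3 a positive one. Of all 44 members, with or without an E-box, 34 had a negative log2 fold change, which is a similar share. The 3 were TEX10 (log2 fold change 0.47), SDAD1 (0.66) and NOC3L (0.43). The 6 called members are shown, which all fell, because MYC was the factor the study followed. Each window is 30 bases long, is written 5′ to 3′ on the strand of the gene, and has the E-box in capitals. Start sites are those of the promoter entries. For PES1, EBNA1BP2 and WDR74 they lie inside the annotated genes, whose spans reach further upstream, to 30607083, 43270936 and 62841809. In PES1 the motif starts 14 bases into the transcript (chr22:30591880-30591909, minus strand), in GNL2 at base 4 (chr1:37595917-37595946, minus strand) and in MRTO4 at base 15 (chr1:19251807-19251836, plus strand). In EBNA1BP2 it starts at base -237 from the start site (chr1:43172790-43172819, minus strand) and in SURF6 at base -224 (chr9:133336395-133336424, minus strand). MDN1 holds it in 2 places, at base -155 (chr6:89819932-89819961, minus strand) and at base 28 (chr6:89819750-89819779, minus strand).
PES1: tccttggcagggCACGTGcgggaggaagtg
GNL2: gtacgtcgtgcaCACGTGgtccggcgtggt
MRTO4: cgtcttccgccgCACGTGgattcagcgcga
EBNA1BP2: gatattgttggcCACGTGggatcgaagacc
SURF6: ggagcacaggaaCACGTGcgggaccggggt
MDN1 at base -155: tttctgtcccacCACGTGctgtgttcgcga
MDN1 at base 28: cgtgtgctcaccCACGTGtggtgcccctct
The flanking bases differ between the genes, and 4 of these 7 E-boxes lie after the start site, in transcribed sequence. WDR74, whose promoter entry has no E-box, has an ETS motif in capitals at base -15 (chr11:62839591-62839620, minus strand).
WDR74: gacgcacacgctgcgCCGGAAGtgtgaact
The 220 bases before the PES1 start site (chr22:30591911-30592130, minus strand, GC content 45.0%) hold a CCAAT box, read here on the other strand as ATTGG in capitals, that starts at base -50, and no E-box.
PES1 upstream: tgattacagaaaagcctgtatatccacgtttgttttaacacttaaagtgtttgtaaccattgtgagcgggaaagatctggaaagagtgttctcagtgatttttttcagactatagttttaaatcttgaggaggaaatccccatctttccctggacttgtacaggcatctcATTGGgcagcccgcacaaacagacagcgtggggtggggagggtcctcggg

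PES1, BOP1 and WDR12 form the PeBoW complex, which is required for the processing of the large subunit rRNA. PES1 and BOP1 fell and WDR12 did not pass the test. PES1 (ENSG00000100029, hg38 chromosome 22 from 30576625 to 30607083, 15 exons in its canonical transcript) was 152 and 218 FPKM in the wild-type pair, compared with 53.9 and 62.4 FPKM in the knockout pair. Both knockout values were far below both wild-type values, while the wild-type replicates also differed from each other. Its level was 3.18-fold lower (log2 fold change -1.65, standard error 0.20, limma adjusted p = 0.00108). BOP1, the scaffold of the complex, was 104 and 115 FPKM in wild-type libraries against 50.9 and 52.0 FPKM after knockout, with a log2 fold change of -1.08 (standard error 0.11, limma adjusted p = 0.000733). WDR12, a WD-repeat protein that MDN1 later removes, was 23.1 and 17.9 FPKM in the wild-type pair, compared with 18.8 and 17.9 FPKM in the knockout pair. The WDR12 groups overlapped, and its log2 fold change of -0.15 had a limma adjusted p of 0.395. After TPM rescaling the log2 fold changes of PES1, BOP1 and WDR12 were -0.97, -0.41 and 0.53, and none was called. The median of all tested genes was then 0.59. The ratio of PES1 to WDR12 within a library was 6.56 and 12.2 in wild-type and 2.86 and 3.48 in knockout libraries.

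The 3 genes responded differently to a correction for transcript length and base composition. Across all tested genes the fold change rose with the length of the canonical transcript and fell with its GC content, and a correction that removed both trends was therefore fitted to each library. BOP1 has a GC content of 65.6%, the highest of the members, and after the correction its log2 fold change was -0.23 with a limma adjusted p of 0.0315. WDR12 has a canonical transcript of 8068 nt, and after the correction its log2 fold change was -1.17 with a limma adjusted p of 0.00243. PES1 kept a call, at a corrected log2 fold change of -1.11. The ratio of PES1 to WDR12 then differed between the conditions by only 0.07 on the log2 scale. Whether length and GC content cause these differences was not tested.

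MDN1 and NVL are AAA ATPases that pull assembly factors off the particle, and WDR74 is the partner that NVL releases. MDN1 and WDR74 fell. WDR74 (ENSG00000133316, chromosome 11 from 62832342 to 62841809, 11 exons) was 115 and 146 FPKM in wild-type libraries against 51.5 and 52.1 FPKM after knockout, 2.52-fold lower, with a log2 fold change of -1.32 (standard error 0.14, limma adjusted p = 0.00085). After the correction for length and GC content, its log2 fold change was -0.37 and its limma adjusted p 0.0105, and the call ended. TPM rescaling also ended the call, at -0.64. MDN1, the longest transcript of the members at 18485 nt, was 16.1 and 27.8 FPKM in the wild-type pair, compared with 9.02 and 9.24 FPKM in the knockout pair. Its 2 wild-type values differed more from each other than those of most members, and its log2 fold change was -1.21 as deposited and -1.79 after the correction. NVL was 36.2 and 53.1 FPKM in wild-type libraries against 23.0 and 26.0 FPKM after knockout, without overlap, and its limma adjusted p of 0.0113 missed the threshold.

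The second internal transcribed spacer is cut by the endonuclease LAS1L and processed further with the polynucleotide kinase NOL9, and both work with the rixosome of PELP1, TEX10 and the SUMO protease SENP3. SENP3 fell, LAS1L and PELP1 passed the adjusted p below the 2-fold mark, and TEX10 passed it in the other direction. SENP3 was 140 and 217 FPKM in the wild-type pair, compared with 57.2 and 59.2 FPKM in the knockout pair, 3.06-fold lower (log2 fold change -1.58, standard error 0.21, limma adjusted p = 0.00161). Its exons overlap those of the readthrough gene SENP3-EIF4A1 on the same strand, so reads of the 2 may have been shared. LAS1L and PELP1 had log2 fold changes of -0.76 and -0.70. TEX10 was 17.6 and 17.9 FPKM in wild-type libraries against 23.7 and 25.3 FPKM after knockout. Its log2 fold change was 0.47 as deposited (limma adjusted p = 0.00776) and 1.14 after TPM rescaling, where it was called higher. NOL9 was lower in both knockout libraries without passing the test as deposited (adjusted p = 0.015 from limma), and was called lower after the correction, at -1.16, although TPM rescaling turned its sign. The ratio of SENP3 to TEX10 was 7.94 and 12.1 in wild-type and 2.41 and 2.34 in knockout libraries. The ratio of LAS1L to NOL9 overlapped between the conditions, at 11.5 and 11.6 in wild-type and 11.6 and 9.14 in knockout libraries.

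Brix domain proteins bind rRNA in the early particle, and RPF2 with RRS1 brings in the 5S rRNA. As deposited, PPAN was the only 1 of these 6 genes to be called, and after the correction for length and GC content RPF2 was called in its place, at -1.34. PPAN was 103 and 124 FPKM in the wild-type pair, compared with 36.3 and 37.2 FPKM in the knockout pair, 3.09-fold lower (log2 fold change -1.62, standard error 0.13, limma adjusted p = 0.000538). After the correction the value of PPAN was -0.88, below 2-fold. The PPAN exons overlap PPAN-P2RY11 and P2RY11 on the same strand, and 2 small nucleolar RNA genes lie inside it. BRIX1, the most abundant of these genes, was 137 and 159 FPKM in wild-type libraries against 90.1 and 96.6 FPKM after knockout, with a log2 fold change of -0.66 (limma adjusted p = 0.0052) that TPM rescaling turned to 0.02. RPF1, RPF2 and RRS1 also passed the adjusted p, at log2 fold changes of -0.64, -0.91 and -0.78, and the sign of RPF1 was turned by TPM rescaling. As deposited, MAK16, which binds RPF1, overlapped between the conditions. It was 13.3 and 14.1 FPKM in the wild-type pair, compared with 12.9 and 14.6 FPKM in the knockout pair (limma adjusted p = 0.998). Its log2 fold change was 0.68 after TPM rescaling (limma adjusted p = 0.0043), where the median of all tested genes was 0.59. After the correction it was -0.48 (limma adjusted p = 0.0096).

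As deposited, the GTPases held both extremes of the list. GNL2, which resides on the nucleolar pre-60S particle, had the largest fall of the 44 genes and GNL3L the largest rise. GNL2 (ENSG00000134697, chromosome 1 from 37566816 to 37595937, 16 exons) was 82.5 and 137 FPKM in wild-type libraries against 30.9 and 32.7 FPKM after knockout, 3.45-fold lower (log2 fold change -1.74, standard error 0.24, limma adjusted p = 0.00167). Its corrected value was -1.70, and after the correction MDN1 lay lower, at -1.79. GNL3L, a paralog of nucleostemin, was 7.38 and 5.94 FPKM in the wild-type pair, compared with 24.3 and 24.8 FPKM in the knockout pair, 3.68-fold higher (log2 fold change 1.87, standard error 0.13, limma adjusted p = 0.000512). GNL3L has a canonical transcript of 8684 nt, and after the correction its log2 fold change was 0.999, just short of the 2-fold mark. GNL3, which encodes nucleostemin itself, was 167 and 172 FPKM in wild-type libraries against 106 and 109 FPKM after knockout, with a log2 fold change of -0.66 (limma adjusted p = 0.00292) that was 0.02 after TPM rescaling. There are 6 small nucleolar RNA genes inside GNL3. GTPBP4 was 72.9 and 72.5 FPKM in the wild-type pair, compared with 41.0 and 47.3 FPKM in the knockout pair, with a log2 fold change of -0.72, and was called only after the correction, at -1.24.

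The balance between related genes differed between the conditions. The ratio of GNL3 to GNL3L was 22.6 and 28.9 in wild-type and 4.36 and 4.39 in knockout libraries, a change of -2.55 on the log2 scale. A ratio within a library does not depend on the scale of that library. The ratio of RRP1 to its paralog RRP1B was 1.87 and 2.56 in wild-type and 0.697 and 0.728 in knockout libraries, so that RRP1 was the higher gene in the wild-type libraries and RRP1B in the knockout libraries. NOC2L over NOC3L was 12.1 and 14.1 in wild-type and 4.0 and 4.21 in knockout libraries. In none of these 3 pairs did the conditions overlap, and in each the gene with the longer transcript had a larger share of the pair in the knockout than in the wild-type libraries. After the correction for length and GC content the log2 changes were -1.53, -0.85 and -0.69. The part of length in these shifts was not tested.

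**Figure D2:**
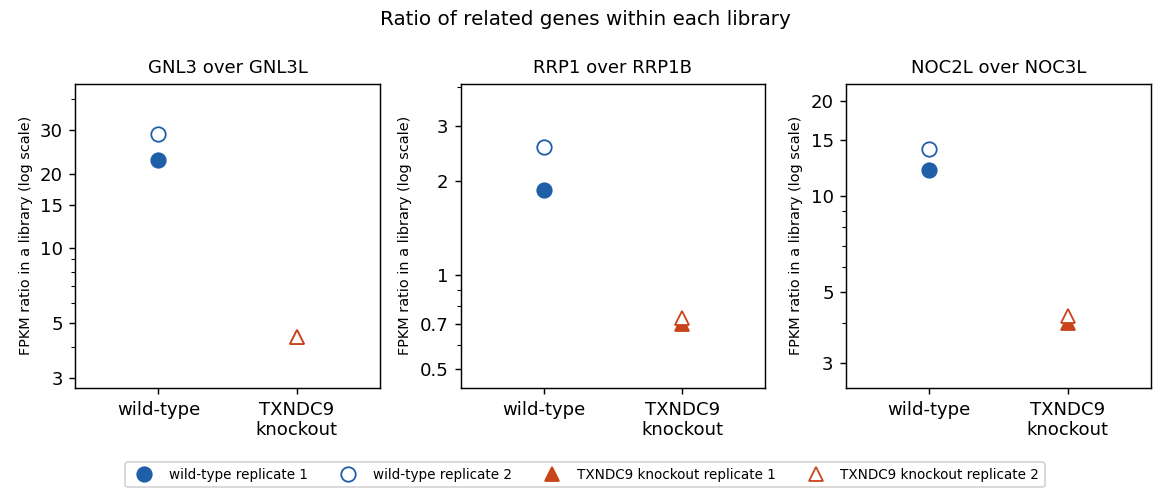
Ratio of the FPKM of 2 related genes in each library, on log axes; circles are wild-type and triangles TXNDC9 knockout libraries, and in the left panel the 2 triangles coincide. GNL3 over GNL3L is 22.6 and 28.9 in wild-type and 4.36 and 4.39 in knockout libraries, and in all 3 panels both knockout ratios lie below both wild-type ratios.

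The NOC proteins escort early particles through the nucleus, and SDAD1 is the human relative of a yeast factor of late nuclear steps. NOC2L fell, from 182 and 218 FPKM in wild-type to 79.3 and 89.3 FPKM in knockout libraries (log2 fold change -1.24, standard error 0.14, limma adjusted p = 0.000956), with a corrected value of -0.76. NOC3L was higher in both knockout libraries, at 19.8 and 21.2 FPKM against 14.99 and 15.45 FPKM, with a limma adjusted p of 0.0112. It was called higher after TPM rescaling (1.11), and its sign turned after the correction (-0.06). SDAD1, the member with the lowest mean, was 5.92 and 5.09 FPKM in wild-type libraries against 8.91 and 8.58 FPKM after knockout. Its log2 fold change was 0.66 as deposited (limma adjusted p = 0.00536) and 1.34 after TPM rescaling, where it was called higher.

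The rRNA methyltransferases NOP2 and FTSJ3 passed the adjusted p below the 2-fold mark, with log2 fold changes of -0.76 and -0.63, and FTSJ3 changed sign under TPM rescaling. NOP2 was 141 and 151 FPKM in the wild-type pair, compared with 81.2 and 92.0 FPKM in the knockout pair. NIP7, which binds NOP2, overlapped between the conditions as deposited, at 28.6 and 32.8 FPKM in wild-type libraries against 30.5 and 32.0 FPKM after knockout. Its log2 fold change was 0.71 after TPM rescaling (limma adjusted p = 0.0013).

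Of the 8 other nucleolar factors of the pre-60S particle, 5 fell. EBNA1BP2, a scaffold of early particles, was 314 and 390 FPKM in the wild-type pair, compared with 137 and 154 FPKM in the knockout pair (log2 fold change -1.27, standard error 0.15, limma adjusted p = 0.00118). NOP16, the shortest transcript of the members at 881 nt, was 138 and 165 FPKM in wild-type libraries against 49.8 and 55.0 FPKM after knockout, 2.90-fold lower (log2 fold change -1.53, standard error 0.13, limma adjusted p = 0.000588). In RRP1 the values were 52.7 and 63.5 FPKM in the wild-type pair, compared with 22.4 and 24.1 FPKM in the knockout pair, and in its paralog RRP1B they were 28.2 and 24.8 FPKM and 32.1 and 33.2 FPKM. RRP1 was called lower at -1.31, and RRP1B, at 0.30, had a limma adjusted p of 0.0512. NIFK, which binds the proliferation marker Ki-67, had 83.8 and 104 FPKM in wild-type libraries and 38.4 and 40.7 FPKM after knockout. SURF6, a nucleolar matrix protein, had 28.2 and 33.1 FPKM in the wild-type pair and 13.9 and 12.6 FPKM in the knockout pair. Neither gene overlapped between the conditions. NIFK and SURF6 were called lower at -1.24 and -1.20, and both were also called after the correction, at -1.11 and -1.31. EBNA1BP2, NOP16 and RRP1 did not reach 2-fold after it, at -0.83, -0.80 and -0.85. RRP15 and RSL1D1 were called only after the correction. RRP15 overlapped between the conditions as deposited, at 14.9 and 13.6 FPKM in wild-type libraries against 14.3 and 14.1 FPKM after knockout, and had a corrected log2 fold change of -1.16. RSL1D1 had a limma adjusted p of 0.0142 at -0.53 as deposited, a positive sign after TPM rescaling, and a corrected value of -1.16.

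The late factors were mixed. NMD3 is the adaptor through which the particle is exported from the nucleus. It was 22.3 and 21.5 FPKM in the wild-type pair, compared with 40.9 and 44.4 FPKM in the knockout pair. Its log2 fold change was 0.96 (standard error 0.10, limma adjusted p = 0.000816), just under the 2-fold mark. After TPM rescaling it was 1.64 (limma adjusted p = 0.000163), and NMD3 was called higher. MRTO4, which holds the place of the stalk protein P0, fell from 95.3 and 118 FPKM in wild-type to 40.6 and 43.5 FPKM in knockout libraries (log2 fold change -1.33, standard error 0.14, limma adjusted p = 0.000764). NLE1, which MDN1 also removes, passed the adjusted p at -0.77. As deposited, RSL24D1, the placeholder for a ribosomal protein of the L24 family, overlapped between the conditions. It was 60.9 and 68.3 FPKM in wild-type libraries against 64.7 and 66.8 FPKM after knockout. After TPM rescaling its log2 fold change was 0.71 (limma adjusted p = 0.00086). There are 9 annotated pseudogenes that carry the name of RSL24D1.

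As deposited, the 5 abundant nucleolar proteins and regulators were lower in both knockout libraries, as were 45.9% of all tested genes. After TPM rescaling the log2 fold changes were -0.43 in LYAR, -0.19 in NCL, -0.10 in NPM1, -0.07 in TSR2 and 0.03 in PA2G4. LYAR, a zinc finger protein, was the only 1 of them called as deposited. It had 47.4 and 59.8 FPKM in wild-type libraries and 23.5 and 25.9 FPKM after knockout. Its log2 fold change was -1.11 as deposited (limma adjusted p = 0.00139) and -0.86 after the correction. NPM1, the chaperone nucleophosmin, was 2517 and 3144 FPKM in the wild-type pair, compared with 1579 and 1690 FPKM in the knockout pair, with a log2 fold change of -0.78, a standard error of 0.21 and a limma adjusted p of 0.0183. As many as 49 annotated pseudogenes carry the name of NPM1, and its reads may have been split among them. NCL, which encodes nucleolin, was 442 and 485 FPKM in wild-type libraries against 246 and 263 FPKM after knockout (log2 fold change -0.87), and it was called after the correction at -1.19. PA2G4, a growth regulator that binds ribosomes, and TSR2, known as the chaperone of a small subunit protein, passed the adjusted p at -0.65 and -0.75.

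**Figure D3:**
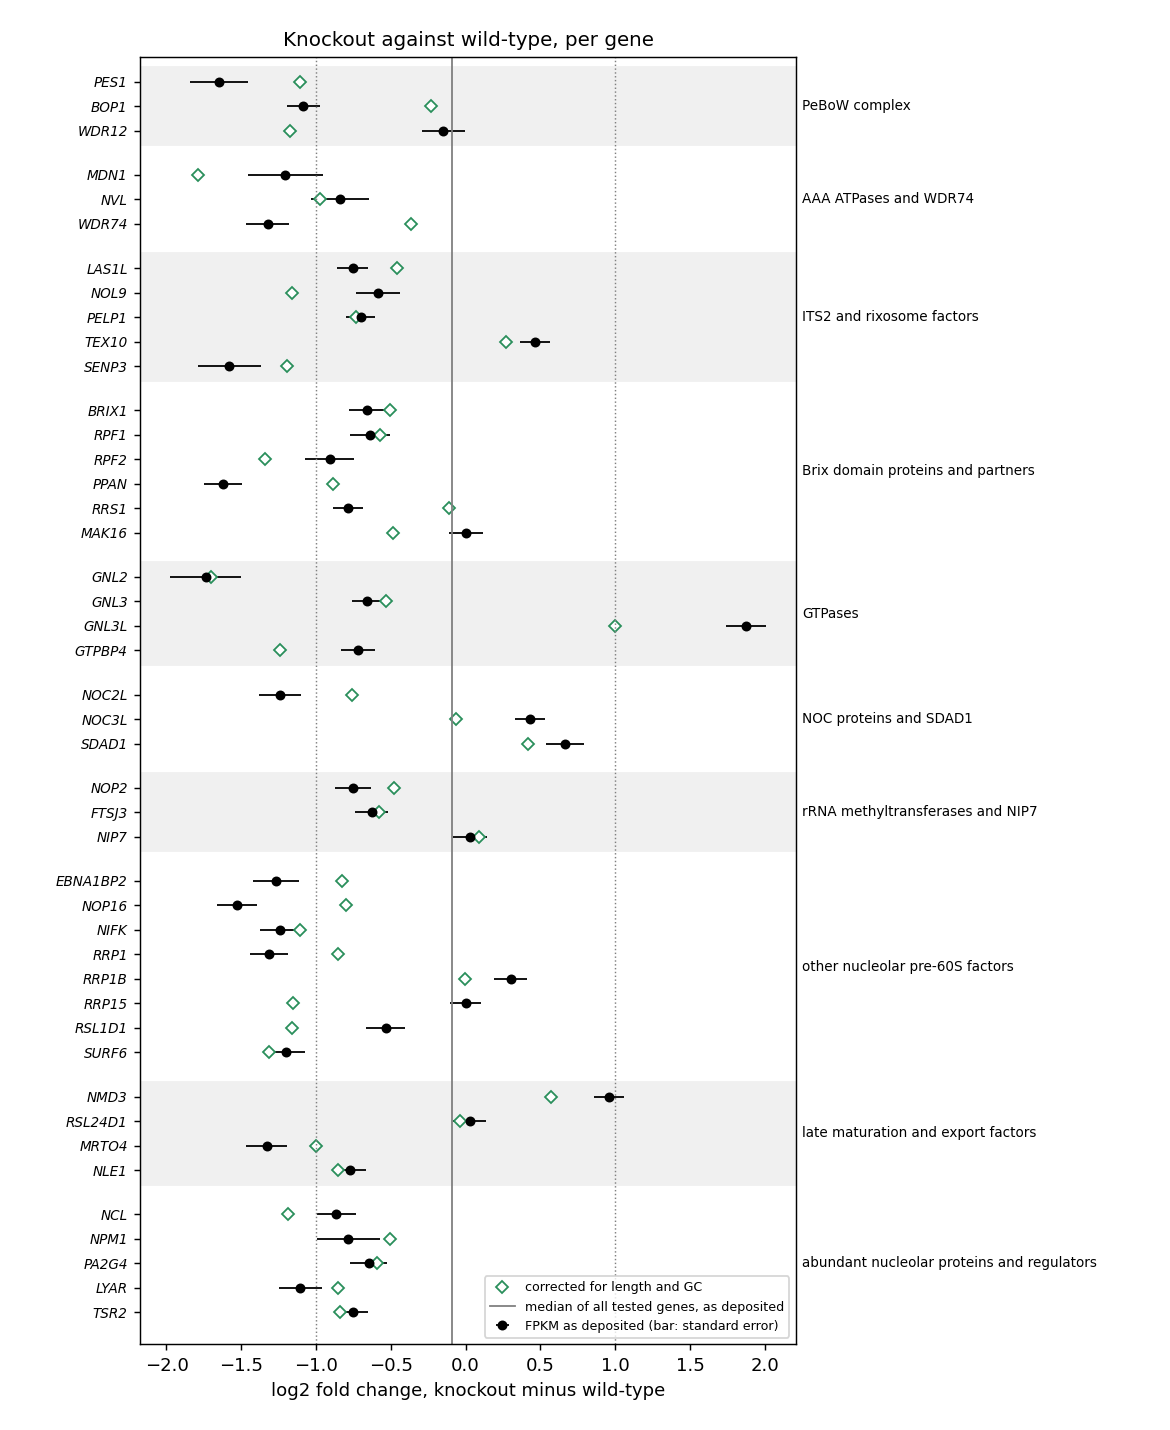
Log2 fold change of the 44 genes, knockout minus wild-type, as deposited (black, bars are standard errors from limma, 2 libraries per condition) and corrected for transcript length and GC content (green); dotted lines mark 2-fold and the grey line the median of all tested genes. GNL2 at -1.74 and GNL3L at 1.87 are the extremes as deposited, and BOP1, WDR74, WDR12 and RRP15 are among the genes whose 2 values lie far apart (8 genes change sign under TPM rescaling, which is not drawn).

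Length and GC content moved with the fold change among the members as they did among all genes. Spearman's rho between the log2 fold change and the length of the canonical transcript was 0.425 over the 44 members and 0.495 over the 13112 tested genes with a canonical transcript, and with GC content it was -0.604 and -0.462. These are correlations across genes, which share the 4 libraries and are not independent replicates. Among genes with a median length of 1207 nt the median log2 fold change was -0.82, and among genes with a median length of 7851 nt it was 0.87. The shortest genes ran the other way, from -0.59 at a median length of 427 nt to -0.91 at 919 nt. The median length was 2827 nt over the members and 2866.5 nt over all tested genes. After the correction 14 members were called lower and 0 higher by limma, where 7.24% of all tested genes were called lower and 6.36% higher, and 39 members had an unadjusted p under 0.05, as had 61.8% of all tested genes. The median was -0.78 over the members and -0.04 over all tested genes, a gap of -0.74. The called genes were partly different ones. GNL2, MDN1, MRTO4, NIFK, PES1, SENP3 and SURF6 were called both ways, 9 genes only as deposited, and 7 only after the correction, which were GTPBP4, NCL, NOL9, RPF2, RRP15, RSL1D1 and WDR12. The 9 were BOP1, EBNA1BP2, GNL3L, LYAR, NOC2L, NOP16, PPAN, RRP1 and WDR74.

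**Figure D4:**
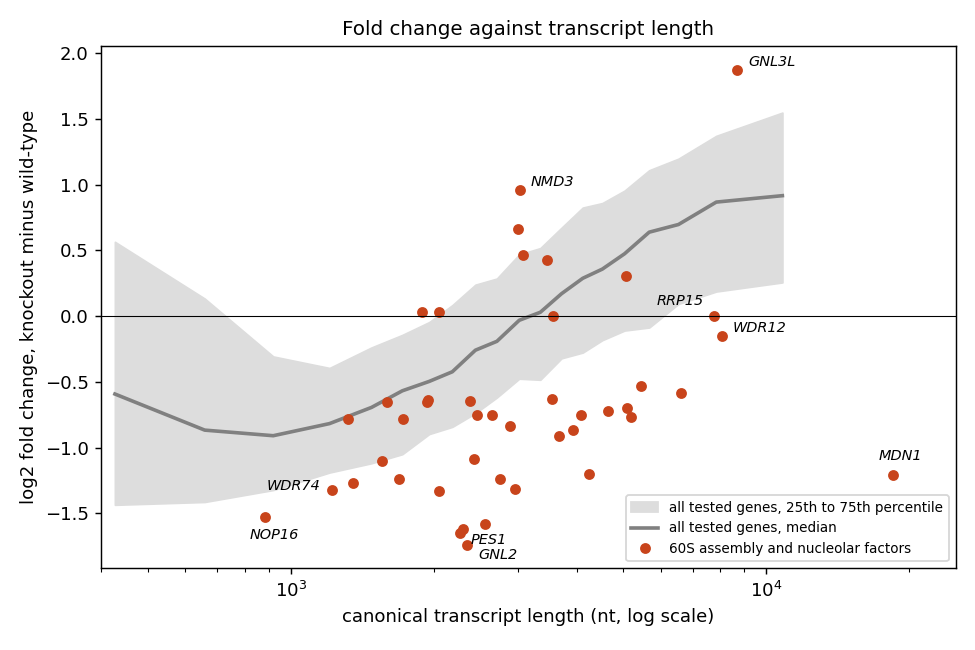
Log2 fold change as deposited against the length of the canonical transcript in nt (log scale), with the 44 genes in red, the median of all tested genes by length as a grey line and the 25th to 75th percentile shaded. The grey line falls from -0.59 at 427 nt to -0.91 at 919 nt. It then rises through -0.82 at 1207 nt and 0.87 at 7851 nt to 0.92 at 10812 nt. Among the genes below the shaded band are WDR12, RRP15, GNL2, PES1, WDR74 and NOP16, and among those above it are GNL3L, NMD3 and SDAD1. MDN1, at 18485 nt, lies beyond its right end.

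Other genes of ribosome assembly were set beside the members. Of 40 other 60S factors, 10 were called lower and 0 higher by limma, 22 and 6 passed the adjusted p, and the median log2 fold change was -0.59. Over the 65 tested genes of the small subunit processome, the machine that starts the small subunit, 17 were called lower and 4 higher, 32 and 9 passed the adjusted p, and the median was -0.58. Of all tested genes 15.3% were called lower and 14.2% higher, 27.1% and 23.7% passed the adjusted p, and the median was -0.09. The medians of both lists turned positive under TPM rescaling, at 0.09 and 0.10, where the median of all tested genes was 0.59. After the correction for length and GC content they were -0.39 and -0.49, where that of all tested genes was -0.04. ZNF593, a zinc finger protein of late pre-60S particles, was 134 and 196 FPKM in the wild-type pair, compared with 30.2 and 38.04 FPKM in the knockout pair (log2 fold change -2.25, limma adjusted p = 0.000664). DDX54, a DEAD-box helicase, was 167 and 221 FPKM in wild-type libraries against 46.6 and 47.7 FPKM after knockout, at -2.03. In the processome, NOC4L, which is related to the NOC proteins above, had a log2 fold change of -2.002 and the helicase DDX10 one of -1.97. Each of these 4 genes was lower than any of the 44 members on this scale as deposited. After the correction the 4 values were -1.43, -1.81, -0.98 and -2.22, and ZNF593 and NOC4L were not below MDN1 at -1.79 and GNL2 at -1.70. The difference between the lists was not tested.

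**Figure D5:**
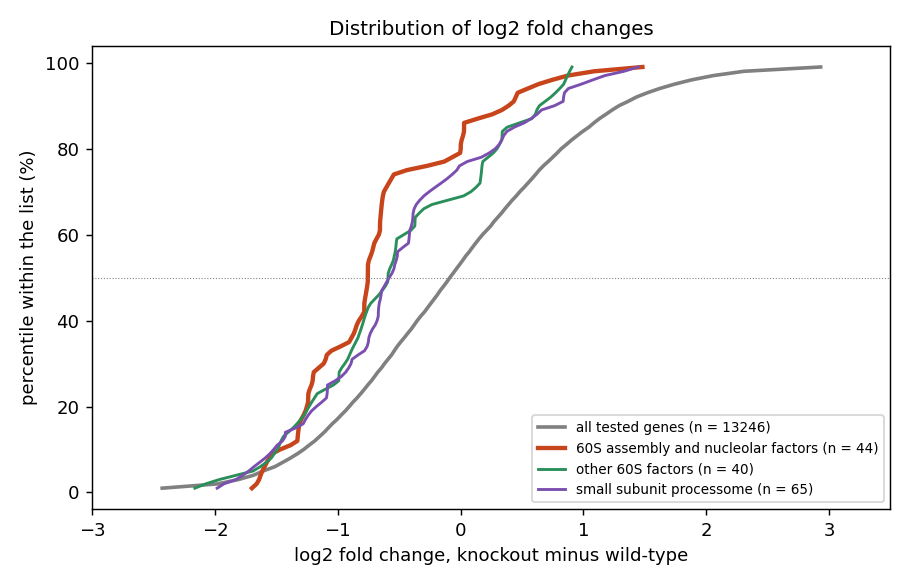
Percentile of each log2 fold change within its list, for all 13246 tested genes, the 44 members, 40 other 60S factors and 65 genes of the small subunit processome, as deposited. At the 50th percentile the curves stand at -0.09, -0.76, -0.59 and -0.58 (under TPM rescaling at 0.59, -0.08, 0.09 and 0.10).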

How the data were processed

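Polyadenylated RNA was sequenced on the Illumina HiSeq platform. The authors aligned reads with TopHat2 (hg38, Ensembl annotation), and the deposited unit is FPKM, which Cuffdiff computed for every gene in each library. Versions, library normalization and strand settings are not given in the sources used here, and the exons of 7 members overlap those of another gene on the same strand and of 23 on the other. The authors' columns of averages, fold changes, p-values and q-values were not used. The table had 231916 lines, of which 57979 held values. The identifiers were out of register with the symbols and were put back in order, and 56935 were in GENCODE release 44, which gave positions, canonical lengths and GC content.

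In R 4.3.3 with limma 3.58.1, log2(FPKM + 0.1) of the 13246 genes with an average FPKM above 1 was compared between 2 wild-type and 2 knockout libraries (lmFit, eBayes with trend, Benjamini-Hochberg adjustment). A fold change on this scale understates that of low genes. Values written as a fold lower or higher are ratios of mean FPKM. Log2 fold changes are differences of mean log2(FPKM + 0.1), so the 2 measures need not match. The 2-fold threshold used the log2 fold change. Called genes had an adjusted p under 0.01 and a change of at least 2-fold, after the study's thresholds. The correction fitted loess curves (span 0.3) of each library's deviations on length and GC content. Alternatives were other pseudocounts, filters, thresholds and scales, no trend, the replicate block and leaving out each library. The correction with the replicate block and the share without NPM1 were added after seeing the data. The low values showed no step worth 1 read, so depth is unknown and no interval or floor is given. Log2 values correlated at 0.976 between wild-type, 0.980 between knockout and 0.859 to 0.897 between unlike libraries.

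All members are named. Values in every library are given for PES1, WDR74, BOP1 and WDR12, the 5 largest falls and 3 largest rises, the highest member of each role group and 2 paralog pairs, and some further members were chosen after their values were seen. The members and lists were chosen with earlier results of these data known. Figures were drawn with matplotlib 3.10.9, and tables were made with scipy 1.17.1, numpy 2.4.6 and pandas 2.3.3 in Python 3.11.15.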

Additional observations from a re-analysis of the deposited data

How the results depend on the processing

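With 2 libraries per condition the adjusted p-values rest on the spread that limma shares across genes, and with FPKM in place of counts the depth of single values is unknown. Changing the pseudocount to 1 or 0.01, dropping the filter or raising it to 5 FPKM left all 44 members on their side of the threshold. So did relaxing the adjusted p to 0.05 and adding the replicate block. Without the trend 14 members were called lower and 1 higher, where 14.5% and 14.1% of all tested genes were. With the replicate block 15 members were called lower and 1 higher, where 16.2% and 14.8% of all tested genes were. Libraries with the same replicate number deviated with a correlation of -0.0904, so the numbers did not pair them. Leaving out 1 library in turn gave 0 to 17 members called lower and 0 to 1 called higher, with a median of -0.83 to -0.69, 0 to 14 other 60S factors called lower with a median of -0.69 to -0.51 (0 called higher), and 0 to 20 processome genes called lower and 0 to 4 higher with a median of -0.67 to -0.44. The members' share of the library, as knockout over wild-type, was 0.897 of tested genes only. Rescaling to TPM gave 1 member called lower and 5 higher (median -0.076), 2 other 60S factors called lower and 8 higher (median 0.086), and 4 processome genes called lower and 13 higher (median 0.099), since it shifts all genes by the same amount per library. On that scale 3.37% of all tested genes were called lower and 33.1% higher. Centring on the library median gave medians of -0.90 for the members, -0.73 for the other 60S factors and -0.72 for the processome. The median of all tested genes was -0.23 in that setting, so the gap of the members was -0.67, as without centring. The correction for length and GC content gave 0 members called higher, with and without the replicate block, 6 other 60S factors called lower with a median of -0.39, and 9 processome genes called lower and 0 higher with a median of -0.49. Without the replicate block, 7.24% of all tested genes were then called lower and 6.36% higher, and their median was -0.04. With a pseudocount of 1, 2 processome genes and 11.4% of all tested genes were called higher. With no minimum fold change 29 members were lower and 4 higher, 22 other 60S factors lower and 6 higher, and 32 processome genes lower and 9 higher. The shares of all tested genes were 27.1% lower and 23.7% higher. Under TPM rescaling the log2 fold change turned to 0.53 in WDR12, 0.089 in NOL9, 0.023 in BRIX1, 0.038 in RPF1, 0.024 in GNL3, 0.050 in FTSJ3, 0.15 in RSL1D1 and 0.031 in PA2G4. Centring turned MAK16 to -0.14, NIP7 to -0.12, RRP15 to -0.14 and RSL24D1 to -0.12. The correction turned MAK16 to -0.48, NOC3L to -0.063, RRP1B to -0.0021, RRP15 to -1.16 and RSL24D1 to -0.035. With 1 library left out in turn, WDR12 ran from -0.33 to 0.034, MAK16 from -0.092 to 0.093, NIP7 from -0.070 to 0.13, RRP15 from -0.064 to 0.067 and RSL24D1 from -0.055 to 0.11. Apart from the thresholds and libraries left out, the cause of these changes was not tested.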
